A study of Drosophila melanogaster with 6 samples.

Results

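The genes that encode subunits of the nuclear RNA polymerases and the TBP-associated factors were followed in wing imaginal discs of Drosophila melanogaster that lacked most of the Kdm5 transcript. Members were all genes whose current symbol begins with Polr1, Polr2 or Polr3, or with Taf and a number, and which had a probe set annotated to a single gene. This gave 34 genes of 11982 named genes on the array, made up of 6 polymerase I subunits, 7 polymerase II subunits, 8 polymerase III subunits and 13 Taf genes. The gene table lists 45 symbols of this form, and the other 11 were not analysed here. Among those 11 were the catalytic polymerase II subunit genes Polr2A and Polr2B, as well as Polr2D, Taf2 and Taf11.

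The nuclear genome is transcribed by separate polymerases with different products. Polymerase I makes the large ribosomal RNA precursor in the nucleolus, polymerase II makes messenger RNA, and polymerase III makes transfer RNA, the small ribosomal RNA of the large subunit and other short RNAs. Some small subunits are built into more than one of these enzymes. The Taf proteins assemble with the TATA-binding protein into TFIID, which recognises core promoters for polymerase II, and some of them also belong to the SAGA histone acetyltransferase complex. In a growing imaginal disc, output of polymerases I and III sets the supply of ribosomes and transfer RNA.

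RNA came from discs of larvae in the last instar at 96 h AED, raised at 25 °C. The wild type group was strain w1118 and the mutant group was kdm510424, labelled as kdm5 mutant, with 3 biological replicates each and 1 Affymetrix Drosophila Genome 2.0 array per replicate. About 60 discs were dissected, and biotin-labelled cDNA was made from 100 ng of total RNA. Kdm5, also called lid, encodes an enzyme that removes methyl groups from lysine 4 of histone H3. The labels give neither the zygosity of the mutant discs nor a control strain matched in background, so strain differences and the mutation cannot be told apart, and nothing states that the replicates came from separate crosses.

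The signal is a normalized log2 value per probe set, deposited by the authors, and each change below is mutant minus wild type on that scale. Kdm5 read 10.09, 10.15 and 9.98 on the wild type arrays and 4.67, 3.70 and 4.49 on the mutant arrays. Kdm5 was thus low on every array labelled as kdm5 mutant. The mutant mean of 4.29 was under 4.44, the median over all probe sets, and was not shown to exceed array background, which limits how the size of the fall can be read. The fall, 5.79 ± 0.23 (SE) on the deposited scale, passed the test (adjusted p = 6.18e-06, limma), and the exact two-sided permutation p of 0.1 is the smallest that 3 arrays against 3 allow. All 8 measured wing disc markers lay above that median, and 4 of them, ptc, bs, vg and rn, fell. Markers of other tissues and cell types also differed. In the mutant 5 of 6 salivary gland markers and 3 of 3 fat body markers fell. So did 4 of 4 muscle markers and 3 of 7 haemocyte markers, while 1 haemocyte marker and 1 of 4 myoblast markers rose. The summed linear signal of the salivary gland markers was 3888 to 8968 in wild type and 725.0 to 789.8 in the mutant, that of the fat body markers 469.3 to 1136 and 153.5 to 195.9, and that of the muscle markers 633.7 to 852.6 and 263.6 to 345.9. For the haemocyte markers it was 734 to 987.8 in wild type and 390.9 to 517.9 in the mutant. That of the myoblast markers was higher in the mutant, at 6930 to 7270 against 5603 to 6006. In whole discs a change in the number of cells of a type and in RNA per cell cannot be told apart. The part of these tissues in the results below was not tested.

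The members differed between the genotypes about as much as other genes. Their median absolute change was 0.11, against 0.11 for all named genes and 0.14 for those above the median level. With a call defined as an adjusted p under 0.05 (limma, Benjamini-Hochberg over 18769 probe sets), 8 of the 34 members were called, 7 lower and 1 higher. That is 23.5%, against 21.7% of all named genes (11.9% lower and 9.76% higher) and 32.3% of the named genes above the median level (18.1% lower and 14.2% higher), where all 34 members lay. The share of called members thus lay between these backgrounds, near that of all named genes and under that of the named genes above the median level. Those genes were not matched to the members by level, with a median level of 8.66 against 9.34. Centring each array on its hybridization spike-in controls moves every gene up by about the same amount. On that scale 12 members were higher and 2 lower. Of the 18769 probe sets 6302 were then higher and 923 lower, a call share of 38.5%, so the higher calls were not particular to the members. With the polyadenylated controls 1 member was higher and 2 lower, while 1977 probe sets were higher and 1029 lower, a share of 16%. The arrays of the genotypes did not overlap for 25 of the 34 members, while 57.6% of the named genes above the median level and 41.7% of all named genes had no overlap. No member changed 2-fold, while 359 of all 11982 named genes and 335 of the 7274 above the median level did. The called members had a median absolute change of 0.25, against 0.38 for all called genes.

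**Figure D1:**
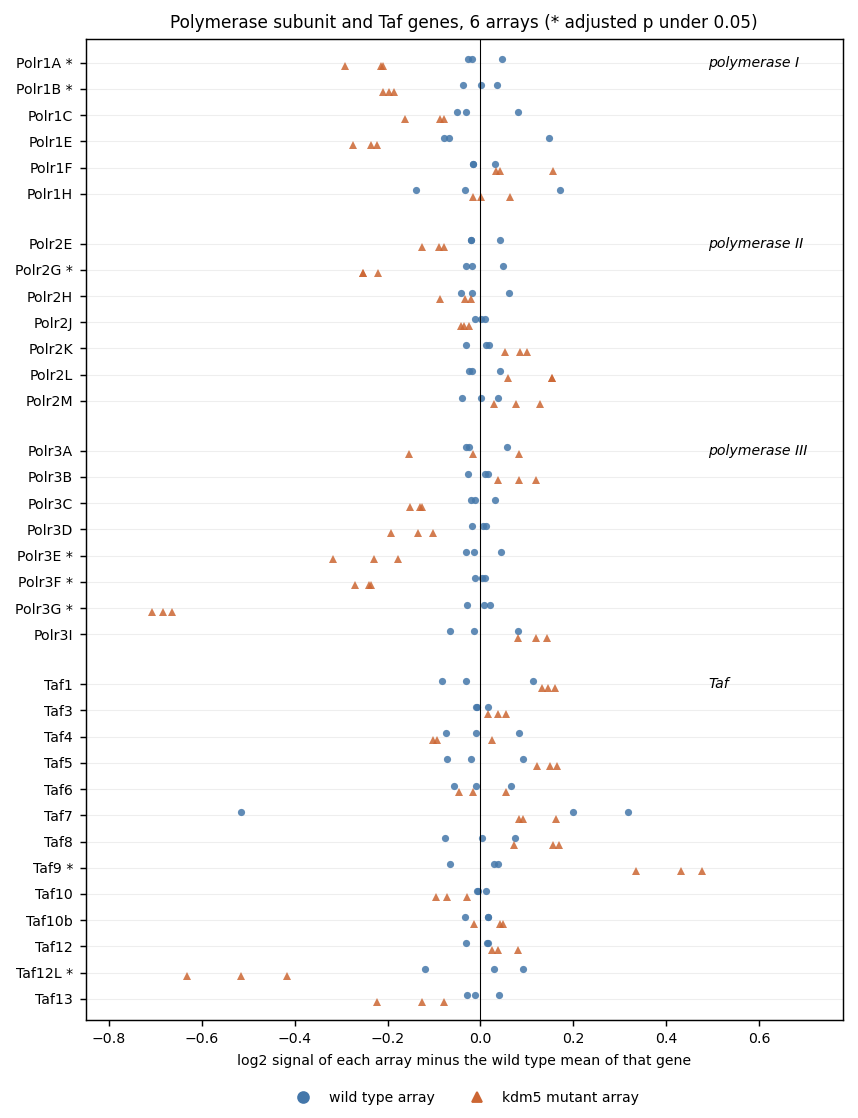
Each row is 1 member gene, and each point is 1 array, as the log2 signal minus the wild type mean of that gene (circles, wild type; triangles, kdm5 mutant; 3 arrays each). Most rows lie close to 0, while the mutant arrays of Polr3G and Taf12L lie well to the left and those of Taf9 to the right; a wild type array of Taf7 stands apart at the left.

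The polymerase III subunits held the largest fall of the polymerase genes. Polr3G, Polr3F and Polr3E fell, none of the 8 measured subunits rose, and 5 were not called. The call share was 37.5%, against 32.3% of the named genes above the median level. The median change of the group was -0.14, against 0.0043 for all named genes.

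Polr3G belongs to the subcomplex of 3 proteins that, in yeast and human polymerase III, helps open the promoter during initiation. Its signal was 9.73, 9.68 and 9.72 on the wild type arrays and 9.00, 9.05 and 9.03 on the mutant arrays. The mutant arrays were all low and tightly spaced, far below every wild type array. The mean fell from 9.71 ± 0.03 to 9.02 ± 0.02 (SD, n = 3 each), a change of -0.68 ± 0.05 (SE) or 1.61-fold (adjusted p = 8.03e-05, limma). Among the 1430 named genes called lower, 386 had a larger fall than Polr3G.

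Polr3F and Polr3C are the other partners of that subcomplex. Polr3F read 8.00, 7.98 and 8.00 in wild type and 7.75, 7.76 and 7.72 in the mutant, again without overlap. It fell by 0.25 ± 0.05 (SE, adjusted p = 0.00847, limma). Polr3C changed by -0.14 ± 0.05 and was not called (adjusted p = 0.0892, limma), although its wild type arrays, at 8.32 to 8.37, all lay above its mutant arrays, at 8.19 to 8.21.

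Polr3D and Polr3E form a pair that in yeast takes part in termination and reinitiation. Polr3E read 9.30, 9.24 and 9.23 in wild type and 9.08, 9.03 and 8.94 in the mutant, every mutant array being lower. It fell by 0.24 ± 0.06 (SE, adjusted p = 0.0243, limma). Polr3D changed by -0.14 ± 0.05 without a call (adjusted p = 0.0915, limma), from 9.18 ± 0.02 to 9.04 ± 0.05 (SD, n = 3 each).

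The catalytic subunits gave no call. Polr3A, the largest subunit, changed by -0.029 ± 0.071 (95% interval -0.20 to 0.14), and Polr3B, the second largest, by 0.080 ± 0.049 (-0.034 to 0.19). Polr3I, a subunit of the stalk, changed by 0.11 ± 0.06 (-0.017 to 0.25). The mutant arrays of Polr3A, at 8.40, 8.30 and 8.17, overlapped the wild type arrays, at 8.38, 8.29 and 8.29, those of Polr3B lay just above theirs, and for Polr3I the lowest mutant array and the highest wild type array both read 7.90.

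Among the polymerase I subunits the 2 catalytic ones were called, and Polr1E, not called, changed as much as Polr1A. Differences between subunits or between polymerases were not tested. Polr1A and Polr1B fell, none of 6 rose, and 4 were not called. The call share was 33.3%, near the 32.3% of named genes above the median level, and the median change was -0.15. Polr1A and Polr1B encode the 2 large subunits that together form the catalytic centre.

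Polr1A read 10.23, 10.16 and 10.17 in wild type and 9.97, 9.98 and 9.90 in the mutant, without overlap. It fell by 0.24 ± 0.05 (SE, adjusted p = 0.0174, limma). Polr1B read 8.85, 8.81 and 8.88 in wild type and 8.65, 8.64 and 8.66 in the mutant, where the arrays lay close together below all wild type arrays. It fell by 0.20 ± 0.05 (SE, adjusted p = 0.0267, limma).

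Polr1E, which in yeast forms a dimer that supports initiation and elongation, changed by -0.24 ± 0.07, as much as Polr1A, and was not called (adjusted p = 0.0565, limma). It was called with the filter on low values, with a trended prior and with 1 value per gene (limma adjusted p from 0.00977 to 0.0444), which made 3 polymerase I calls, and under none of the other 11 alternatives. Its wild type arrays were more spread, at 9.74, 9.73 and 9.96, than its mutant arrays, at 9.59, 9.57 and 9.54. Polr1C, an assembly subunit shared by polymerases I and III, changed by -0.11 ± 0.06 (95% interval -0.24 to 0.025). Polr1F, of the stalk, changed by 0.078 ± 0.054 (-0.050 to 0.21), and Polr1H, a small subunit known in yeast for RNA cleavage, by 0.016 ± 0.083 (-0.18 to 0.21).

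Of the 7 measured polymerase II subunits only Polr2G fell, none rose, and 6 were not called. The call share was 14.3%, under the 32.3% of named genes above the median level, and the median change was -0.034. Polr2G encodes the larger protein of the stalk that protrudes from the enzyme near the RNA exit channel. It read 10.47, 10.40 and 10.38 in wild type and 10.20, 10.16 and 10.16 in the mutant, and no arrays overlapped. It fell by 0.24 ± 0.05 (SE, adjusted p = 0.0132, limma). Its partner in the stalk, Polr2D, was not analysed here.

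Several of the remaining subunits are common to all 3 polymerases. Polr2E changed by -0.098 ± 0.048 (95% interval -0.21 to 0.015), Polr2H by -0.047 ± 0.052 (-0.17 to 0.075), Polr2K by 0.079 ± 0.047 (-0.031 to 0.19) and Polr2L by 0.12 ± 0.05 (-0.00097 to 0.25). None was called, in either direction. Polr2J, an assembly subunit of polymerase II alone, read between 11.17 and 11.22 on all 6 arrays, with a change of -0.034 ± 0.044. Polr2M, known as Gdown1, which in mammals binds polymerase II and restrains initiation, changed by 0.078 ± 0.052 (-0.044 to 0.20).

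Grouped by sharing, a grouping made after the values were seen, none of the 5 measured subunits shared between polymerases was called, including Polr1C. Of the 15 subunits that belong to 1 polymerase, counted without Polr2M, 6 were lower, or 40%. Of the named genes above the median level, 18.1% were lower and 32.3% were called in either direction. Among those 6 calls only that of Polr3G was kept with the spike-in centrings. The medians of the shared and the unshared subunits were -0.047 and -0.14, and the difference between them was not tested.

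Calls of the polymerase genes other than Polr3G depended on the arrays used or on the scale. Beside Polr1E, the filter on low values added lower calls of Polr3C and Polr3D, and the trended prior those of Polr3D, Polr2E and Taf13 and a higher call of Polr2L (limma adjusted p from 0.0198 to 0.0464). With each array centred on its polyadenylated or its hybridization spike-in controls, Polr1A, Polr1B, Polr2G, Polr3E and Polr3F kept a lower value but were no longer called (limma adjusted p from 0.201 to 0.854). Centring on the hybridization controls moved the median change of all named genes to 0.185, and the polymerase I and III medians to 0.027 and 0.041. A centring adds 1 constant per array, so the distance between these medians cannot change and is no check of the group changes. With 1 array left out, the limma adjusted p of Polr1A rose to 0.0513 to 0.0634 when this was array 1 of the wild type or array 2 or 3 of the mutant. That of Polr2G rose to 0.0574 for array 2 of the mutant, and that of Polr3E to 0.0576 to 0.0817 for array 1 or 2 of the wild type or array 2 or 3 of the mutant. Polr1B kept its call only when the array left out was array 2 of the wild type, with an adjusted p of 0.0587 to 0.101 for the others (limma). Polr3F was called whichever array was left out. Polr3G was called under all 15 alternatives, with changes from -0.70 to -0.50. Members called lower numbered 7 over all arrays, 4 when array 1 of the wild type or array 3 of the mutant was left out, and 3 when array 2 of the mutant was. Calls over all probe sets dropped as well, from 18.3% with all arrays to between 12.4% and 14.9% with 1 left out.

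**Figure D2:**
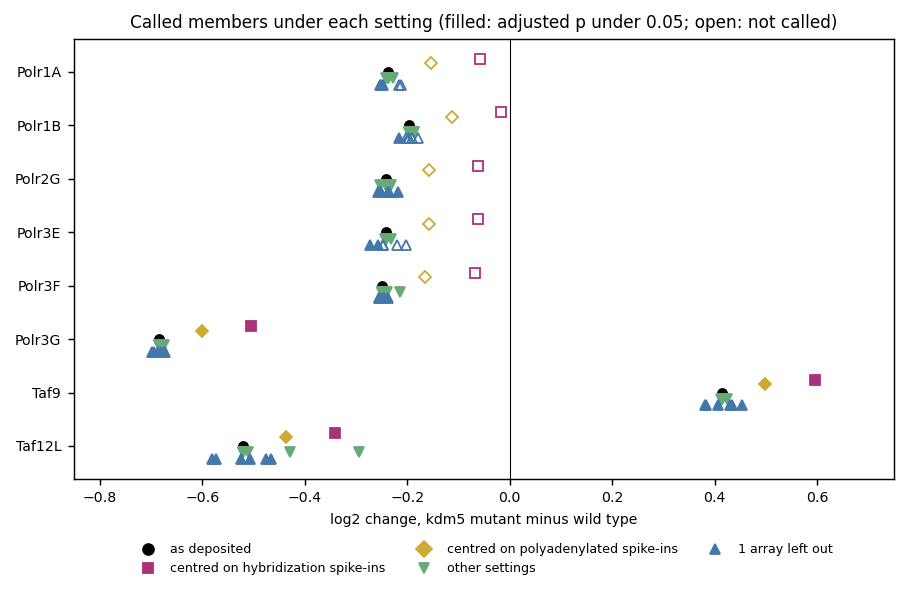
The horizontal axis is the log2 change, mutant minus wild type, of the 8 called members, and each symbol is 1 setting (filled, adjusted p under 0.05; open, not called). Polr3G, Taf9 and Taf12L were filled under every setting, whereas Polr1A, Polr1B, Polr2G, Polr3E and Polr3F were open with the arrays centred on either kind of spike-in.

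Among the 13 Taf genes Taf9 rose, Taf12L fell and 11 were not called. The call share was 15.4%, under the 32.3% of named genes above the median level, and the median change was 0.037. Most Taf genes of TFIID therefore gave no call, and their intervals are given below.

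Taf9 encodes a histone-fold protein of both TFIID and SAGA, which pairs with the Taf6 protein. It read 9.42, 9.32 and 9.41 in wild type and 9.82, 9.86 and 9.72 in the mutant. All mutant arrays lay above all wild type arrays. The mean rose from 9.38 ± 0.06 to 9.80 ± 0.07 (SD, n = 3 each), a change of 0.41 ± 0.06 (SE) or 1.33-fold (adjusted p = 0.0029, limma). It was called under all 15 alternatives, with changes from 0.38 to 0.60. Among the 1170 named genes called higher, 469 had a larger rise. Taf6 was not called, at -0.0022 ± 0.056 (95% interval -0.13 to 0.13), and the difference between the partners was not tested.

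Taf12L, also known as ryan express, is a paralogue of Taf12 that is known from the testis, where it acts with other testis forms of the Taf proteins in spermatocyte transcription. Its probe set 1624194_a_at read 5.56, 5.77 and 5.71 in wild type and 5.27, 5.17 and 5.05 in the mutant, where every array was lower. It fell by 0.52 ± 0.08 (SE), 1.44-fold (adjusted p = 0.00383, limma). A second probe set, 1641466_at, stayed under the median of all probe sets on each of the 6 arrays, at 3.72 to 3.93, and changed by -0.066 ± 0.072 (adjusted p = 0.612, limma). With both averaged the change was -0.29 and was still called. Of the other testis paralogues, can, nht and sa lay below the median level on all 6 arrays and were not called, whereas mia, a paralogue of Taf6, lay above it and fell by 0.26 ± 0.05 (adjusted p = 0.0108, limma). The call of mia was lost with the arrays centred on either kind of spike-in. Of 8 measured germline and testis markers 3 fell, piwi, bam and Mst87F. On all 6 arrays 5 of the 8 lay below the median level, and Mst87F was 1 of these 5. The summed linear signal of the 8 markers was 190.5 to 207.5 in wild type and 162.1 to 173.3 in the mutant, and their part in the change of Taf12L was not tested.

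Taf4, a scaffold of TFIID whose histone fold pairs with that of Taf12, gave different answers by probe set. Probe set 1624037_s_at, which represents the gene here, read 10.85, 10.91 and 11.00 in wild type and 10.82, 10.83 and 10.95 in the mutant. These arrays overlapped, and the change was -0.057 ± 0.064 (adjusted p = 0.628, limma). Probe set 1640309_s_at read 10.23, 10.29 and 10.26 in wild type and 9.96, 9.88 and 10.05 in the mutant, without overlap. It fell by 0.30 ± 0.06 (SE, adjusted p = 0.0131, limma), a call that was lost with either spike-in centring and without array 2 of the mutant (limma adjusted p = 0.0507). Which transcripts of the gene each probe set detects was not examined here.

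**Figure D3:**
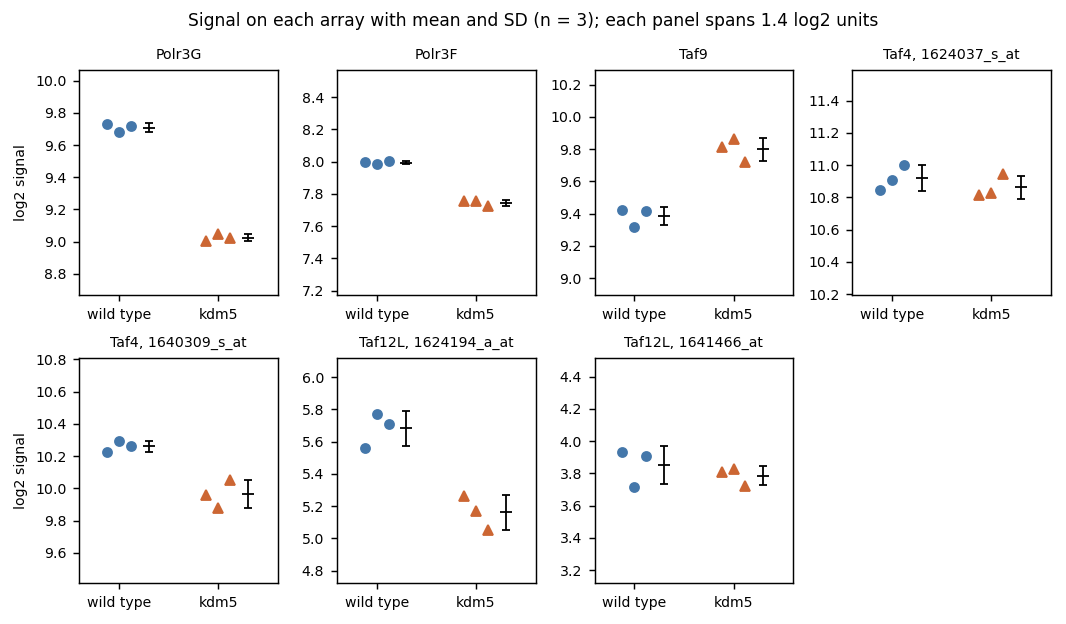
Log2 signal on each array (circles, wild type; triangles, kdm5 mutant), with the mean and SD of 3 arrays beside them, for Polr3G, Polr3F, Taf9 and both probe sets of Taf4 and Taf12L; every panel spans the same range of log2 units. The groups separate for Polr3G, Polr3F, Taf9, for 1640309_s_at of Taf4 and for 1624194_a_at of Taf12L, and overlap for the other probe set of each gene.

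The other Taf genes of TFIID were not called. Taf1, the largest subunit, with bromodomains, changed by 0.15 ± 0.06 (95% interval -0.00062 to 0.29). Taf5, a WD-repeat protein of the core, changed by 0.15 ± 0.06 (0.010 to 0.28) and Taf8 by 0.13 ± 0.06 (-0.0065 to 0.27). Taf13, a histone-fold partner of Taf11, changed by -0.14 ± 0.06 (-0.28 to -0.010). These 4 were the uncalled Taf genes with the lowest adjusted p, from 0.137 to 0.185 (limma).

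Taf3, which in mammals reads methylation at lysine 4 of histone H3 through its PHD finger, read 10.97, 10.97 and 10.99 in wild type and 11.01, 10.99 and 11.03 in the mutant. Its change was 0.037 ± 0.045 (95% interval -0.070 to 0.14) and was not called. Taf12 changed by 0.047 ± 0.047 (-0.064 to 0.16). Taf10 and Taf10b, neighbouring genes on chromosome arm 2L that encode related histone-fold proteins, changed by -0.065 ± 0.047 and 0.026 ± 0.048, and neither was called. Taf7 read 8.12, 8.24 and 7.40 in wild type and 8.00, 8.01 and 8.08 in the mutant. Array 3 of the wild type lay far below the others, the interval of the change (-0.36 to 0.58) was the widest among the members, and without that array the change read -0.15 in place of 0.11. The intervals of the 26 uncalled members together ran from -0.41 to 0.58, and no higher than 0.29 without Taf7, so that a 2-fold change lay outside each of them.

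Genes that work with the polymerases and with TFIID were counted in 8 lists. Of 88 measured genes outside the members, 14 fell and 6 rose, or 22.7%. That is near the 21.7% of all named genes and under the 32.3% of named genes above the median level, where 84 of the 88 lay. Of 20 general transcription factors of polymerase II, TfIIA-S, which stabilises TFIID on DNA, fell by 0.23 ± 0.05, and Ssl1 and Tfb4 of TFIIH by 0.18 ± 0.05 and 0.21 ± 0.06 (log2 change ± SE). The list had a call share of 15% and a median of 0.0041, and none rose. Each of these calls was lost without at least 1 array, those of Ssl1 and Tfb4 without any of the 6, and all 3 with either spike-in centring. Of the mitochondrial transcription genes none of 3 was called, with TFAM at -0.071 ± 0.058 and mtTFB2 at -0.15 ± 0.05.

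The widest change among the initiation factors of the other polymerases was that of udd, which encodes a factor bound to ribosomal DNA in the fly germline. It read 10.28, 10.30 and 10.30 on the wild type arrays and 9.25, 9.29 and 9.44 on the mutant arrays, well apart from them. It fell by 0.96 ± 0.06, 1.95-fold (adjusted p = 6.62e-05, limma), and was called under all 15 alternatives. The other measured factor, Tif-IA, which links polymerase I to its promoter, changed by -0.15 ± 0.06 and was not called (adjusted p = 0.125, limma), so that the median of these 2 genes was -0.56. The polymerase III list held Maf1 and La beside the initiation factors. Of its 7 measured genes 2 fell and 1 rose, or 42.9%, against 32.3% of named genes above the median level. The median of 0.068 was the value of Maf1. Pbp95 and Pbp45, subunits of the complex that binds small nuclear RNA promoters, fell by 0.43 ± 0.05 and 0.27 ± 0.05, and Brf, which recruits polymerase III, rose by 0.29 ± 0.05. Pbp45 was no longer called with either spike-in centring.

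SAGA shares Taf proteins with TFIID, and Taf9 was left out of its list as a member. Of 11 measured SAGA genes, Spt20 and wda fell by 0.77 ± 0.07 and 0.64 ± 0.10 and Sgf11 rose by 0.23 ± 0.05, with a median of -0.039. The call share was 27.3%, under the 32.3% of named genes above the median level. The wda protein takes the place in SAGA that Taf5 has in TFIID. The call of Sgf11 depended on array 1 and array 3 of the wild type and on array 1 and array 2 of the mutant (limma adjusted p from 0.0611 to 0.0872 without 1 of them). Of 26 Mediator genes MED16 rose by 0.64 ± 0.05, and Cdk8, MED26 and MED21 fell by 0.34 ± 0.05, 0.27 ± 0.05 and 0.16 ± 0.04, with a median of 0.0045. Calls made up 15.4% of the Mediator list, also under that background. Cdk8, MED26 and MED21 lost their calls with either spike-in centring, where MED21 read 0.020 on the hybridization controls, and MED21 also without any of the 6 arrays.

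Of 15 elongation factors of polymerase II, 3 rose and 2 fell, and the median was -0.046. The call share was 33.3%, near the 32.3% of named genes above the median level. Rtf1, of the Paf1 complex that travels with polymerase II, rose from 9.10 ± 0.08 to 10.11 ± 0.04 (SD, n = 3 each), a change of 1.01 ± 0.06 (adjusted p = 4.33e-05, limma). CycT, the cyclin of P-TEFb, and Su(Tpl), which encodes the elongation factor Ell, rose by 0.38 ± 0.06 and 0.23 ± 0.05, while lilli of the super elongation complex fell by 0.26 ± 0.06 and TfIIS, which reactivates stalled polymerase II, by 0.19 ± 0.05. Leaving out array 1 of the wild type or array 2 of the mutant ended the calls of Su(Tpl) and lilli, and TfIIS kept its call only when the array left out was array 3 of the wild type (limma adjusted p of the lost calls from 0.0518 to 0.101). Neither lilli nor TfIIS was called with either spike-in centring. With the probe sets of each gene averaged, lilli changed by only -0.16 and was still called (adjusted p = 0.0436, limma).

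**Figure D4:**
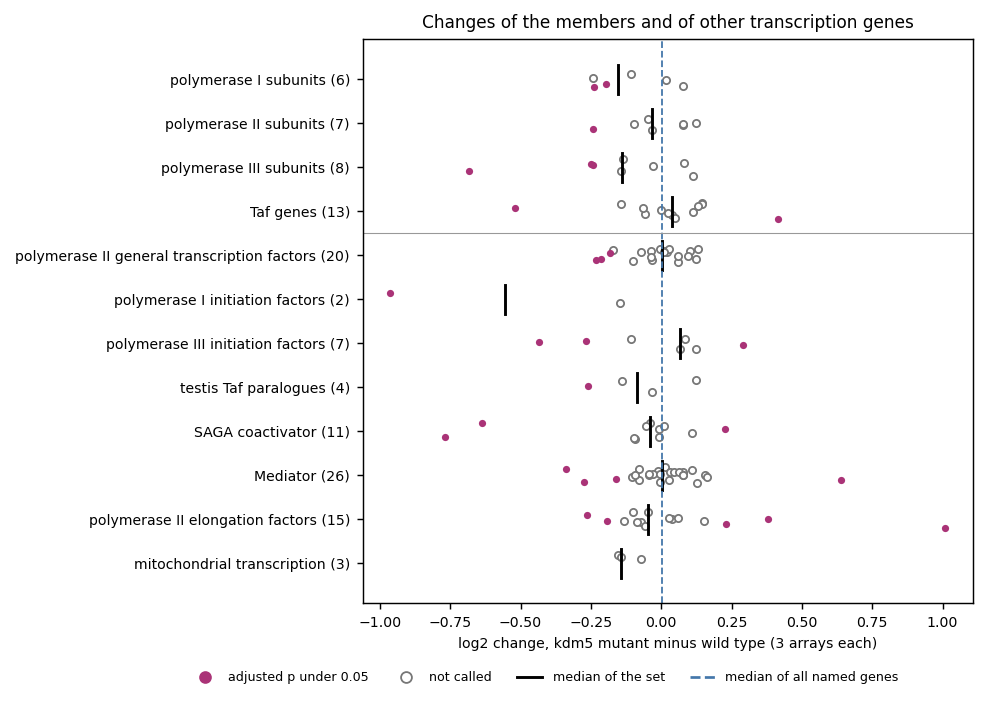
Each point is 1 gene, placed by its log2 change, mutant minus wild type (filled, adjusted p under 0.05; open, not called), with the number of genes in parentheses, the median of each set as a black bar and the median of all named genes as a dashed line. The medians of polymerase I and III subunits lay at -0.15 and -0.14, and Polr3G, udd, Spt20, wda, MED16 and Rtf1 stood out from their sets.

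The called members were spread over the genome. Taf9 lies on the X chromosome, Taf12L and Polr1B on 2L, Polr1A on 2R, Polr3E and Polr3G on 3L, and Polr2G and Polr3F on 3R. Of 60 measured genes that lie next to a member in the gene order of the RefSeq table, 4 rose and 5 fell. That is 15%, against 21.7% of all named genes. The members Taf10 and Taf10b are among the 60, each as the neighbour of the other. Next to Polr3G, COX7B changed by 0.0061 ± 0.0456 and Gorab by -0.14 ± 0.06, and next to Taf9, CG6398 changed by -0.042 ± 0.056 and CG8142, which overlaps it, by -0.15 ± 0.05. None of these 4 neighbours was called. Blos1 beside Polr1A and CG10584 beside Polr3E fell by 0.42 ± 0.05 and 0.35 ± 0.05, and CG31344 beside Polr2G rose by 0.42 ± 0.06. These neighbours were chosen after the values of the members were seen.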

How the data were processed

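The titles in the labels put the 6 arrays into 2 groups of 3. The authors deposited normalized log2 signal for 18952 probe sets. Of the programs in the submitters' processing notes (GCRMA, PLIER, Affymetrix Expression Console, GCOS), none is tied to these values. Scanner files were not used, so no detection calls were at hand, and the number of arrays limits the precision. Without 183 control probe sets, 18769 were tested with limma 3.58.1 in R 4.3.3 (lmFit and eBayes, genotype as the only term, two-sided, Benjamini-Hochberg over all of them, threshold 0.05), a procedure tested on simulated data. Platform annotation paired 13647 of them with 1 gene, 402 with several and 4720 with none. Symbols were updated by gene identifier for 13544, from the RefSeq table of assembly GCF_000001215.4 Release 6. The probe set of highest mean stands for its gene. No coordinates are given, since the series names no build.

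Named were Kdm5, all members, and up to 4 called genes per list (the 2 of highest mean where none was called), plus TfIIS and Tif-IA, which complete their lists and were added after their values were seen. Members and lists were chosen with earlier results of these data known, so no list was tested. Alternatives were a replicate term, other scalings, a filter on low values, a trended prior, other summaries of probe sets and each array left out.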

Additional observations from a re-analysis of the deposited data

How the results depend on the processing

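Polr3G, Taf9 and Taf12L kept their direction and their call under all 15 alternatives, and Kdm5 did so too. The labels do not say that replicate numbers pair samples, and deviations of same-numbered arrays from their group means correlated at 0.0019, 0.0057 and -0.11, so the numbers were not taken as pairs; with the replicate number as a block 5 members were called lower in place of 7, and no polymerase I member in place of 2. With the arrays centred on 18 hybridization spike-in probe sets, 12 members were called higher and 2 lower, 1 of polymerase I, 3 of polymerase II and 7 Taf genes, with medians of 0.027 for polymerase I, 0.15 for polymerase II, 0.041 for polymerase III and 0.22 for Taf genes, against 0.185 for all named genes. Centred on 24 polyadenylated spike-in probe sets, 2 members were called lower, 0 of polymerase I, 0 of polymerase II and 1 of polymerase III, with medians of -0.069, 0.051, -0.055 and 0.12 in the same order. Calls over all probe sets were 53.7% lower as deposited, 12.8% and 34.2% lower under these centrings; a centring adds 1 constant per array, so it moves all genes alike. With a trended prior 2 members were called higher, 11 lower and 3 of polymerase II, and with the filter on low values 5 of polymerase III. With 1 array left out, members called lower ran from 3 to 6, polymerase I calls from 0 to 2, polymerase II calls from 0 to 1 and the polymerase II median from -0.040 to -0.017. Of all probe sets tested, 18.3% were called as deposited, 13.3% with the block and 12.4% to 14.9% with 1 array left out. The share was 38.5% on the hybridization controls, 16% on the polyadenylated ones, 23.1% with the trended prior and 43% with the filter.

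Signs turned in members that were not called. On the hybridization controls Polr1C read 0.072, Polr2E 0.082, Polr2H 0.13, Polr2J 0.15, Polr3A 0.15, Polr3C 0.044, Polr3D 0.037, Taf4 0.12, Taf6 0.18, Taf10 0.12, Taf13 0.038 and the called Mediator gene MED21 0.020. On the polyadenylated controls Polr2H read 0.037, Polr2J 0.051, Polr3A 0.055, Taf4 0.028, Taf6 0.082 and Taf10 0.019. With quantile normalization Taf6 read 0.0073 and Polr3A 0.012, and with median centring Taf6 read 0.0080. With 1 array left out Taf6 ran from -0.031 to 0.030, Polr1H from -0.053 to 0.10, Polr3A from -0.085 to 0.034 and Taf7 from -0.15 to 0.27. For the spike-in centrings the constant itself moves the value; for the other settings the cause was not tested.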
